A study of Homo sapiens with 4 samples.

Results

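The urea cycle and ammonia genes were examined in A549, a human lung adenocarcinoma cell line, after transduction with a virus that expresses FCN3, a secreted lectin. The set held 9 genes out of the 25192 in the tables, and 9 of the 9 passed the filter on low counts, which left 14099 genes. They were found by symbol: CPS1, ASS1, ASL, ARG2, NAGS, SLC25A13, SLC25A15, GLUL and GLUD1. CPS1 was chosen by its large fall in this same comparison, so its levels and fold change are given as a description, without a test. The other 8 were added for their place in the pathway, with those results known.

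RNA was sequenced from 4 samples of this single line, taken 48 h after infection. In 2 of them the retrovirus carried GFP only (the empty virus, EV), and in 2 it carried full-length FCN3 with a V5 tag together with GFP (the FCN3 virus). The sources do not say whether the duplicates were transduced separately, so the p-values below measure only the spread between these libraries, which may be technical. Bulk RNA was measured, in which fewer expressing cells and less RNA per cell cannot be told apart.

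The urea cycle disposes of ammonia, mainly in the liver. CPS1 joins ammonia and bicarbonate to carbamoyl phosphate in mitochondria and needs N-acetylglutamate, the product of NAGS, to be active. OTC combines carbamoyl phosphate with ornithine to citrulline, ASS1 and ASL convert citrulline and aspartate to arginine and fumarate, and an arginase splits arginine to urea and ornithine. Outside the liver single steps are used for other ends, and CPS1 is known to be expressed in some lung adenocarcinomas that lack the kinase LKB1, A549 being a line without it. GLUL fixes ammonia as glutamine, and GLUD1 interconverts glutamate with ammonia and 2-oxoglutarate.

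The 4 libraries held between 16353554 and 35733735 expected counts, the deeper library of each group being replicate 1. FCN3 itself had 1 and 0 expected counts in EV against 722388 and 448352 in the transduced libraries. Of 10 lung epithelial markers, KRT7, KRT8 and KRT18 were the most abundant, and NKX2-1, SFTPB and SFTPC were at or under the floor of 3 counts in every library. The summed level of the list was 6440 and 8140 CPM (counts scaled to a common library size, normalized by TMM) in EV. With the FCN3 virus it was 7580 and 8970 CPM. Single markers went in both directions. KRT19 was at 23.1 and 37.5 CPM in EV and at 67.3 and 74.4 CPM with the FCN3 virus. EPCAM was at 2.25 and 3.11 CPM in EV and at 1 and 1.46 CPM with the FCN3 virus. In the other 5 of the 7 markers that passed the filter the groups overlapped. Of 8 hepatocyte markers, 6 were at or under that floor in every library and the sum of the list was at most 0.439 CPM, so that CPS1 was measured here without the other defining genes of liver. Of 5 fibroblast markers, 3 were at or under the floor, and their sum was 11.1 and 27 CPM in EV against 9.4 and 27.4 CPM in FCN3 virus libraries. Of 7 blood and vessel markers, 4 were at or under the floor, and their sum of 31.1 and 33 CPM in EV and 62 and 49 CPM in FCN3 libraries was nearly all CD68, a lysosomal gene. The part of these markers in the results below was not tested.

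CPS1 lies on the plus strand of chromosome 2 of GRCh37, from 211342406 to 211543831. GENCODE gives its protein-coding transcripts several starts. The deposited tables combine 3 RefSeq transcripts of CPS1 into a single value, so that the starts cannot be told apart. Their mean length, which RSEM weights by the estimated abundance of each transcript, was 5640 and 5623 bases in EV and 5725 and 5344 bases with the FCN3 virus, the latter from few reads.

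Sequences around the gene starts are given as a description of the members. Shown as an example is the RefSeq window of SLC25A13, from 250 bases before to 50 bases after its start, at chr7:96322049-96322348 on the minus strand of GRCh38.p14. Capitals mark matches to 8 motifs searched on both strands: TATAAA (the TATA box), CCAAT (the CCAAT box), TGACGTCA (the cyclic AMP response element), TGATGCAA (the core of the CEBP-ATF response element), TTGCGCAA (a C/EBP site), TGTTTAC (a FOXA site), GGGCGG (the GC box) and the ER stress response element, ERSE. The ERSE, of 19 letters, begins with CCAAT, so the matches of these can overlap.
SLC25A13: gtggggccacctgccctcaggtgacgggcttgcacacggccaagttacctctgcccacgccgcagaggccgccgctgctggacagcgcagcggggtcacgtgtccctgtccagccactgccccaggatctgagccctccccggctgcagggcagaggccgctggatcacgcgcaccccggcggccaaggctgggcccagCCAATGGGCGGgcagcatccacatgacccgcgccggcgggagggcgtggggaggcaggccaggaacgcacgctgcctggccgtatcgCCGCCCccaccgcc

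CPS1 had 3 windows of 300 bases in the RefSeq table. They were between 36.7% and 45.3% G or C with 1 to 3 CG dinucleotides, and a CCAAT in one of them was their only motif. Of all 35116 windows in the table, 21.3% had a G or C content at or under 45.3%, and 34.6% held a CCAAT. The 10 windows of the other 8 members ranged from 64.3% to 80% G or C, with 15 to 47 CG dinucleotides. The GC box was found in all 10 of them and in none of the CPS1 windows, against 45% of all windows and 77% of the 9937 tested genes that have one. ARG2 was the only member with the cyclic AMP response element, at 2 places, against 1.85% of all windows and 3.69% of those tested genes. The CEBP-ATF core was found in no member window, against 0.866% of all windows and 0.704% of those tested genes. A match is a description of the letters and not a binding site.

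CPS1 was much lower with the FCN3 virus. Its expected counts were 657 and 311 in EV replicates 1 and 2 and 48 and 30 in FCN3 replicates 1 and 2. These were 18 and 18.6 CPM in EV, and 1.42 and 1.51 CPM with the FCN3 virus. Both FCN3 libraries lay far below both EV libraries, and replicates of a group were nearly alike. The means were 18.3 ± 0.388 and 1.46 ± 0.0659 CPM (SD, n = 2 in each group), a 12.5-fold lower level. In edgeR this was a log2 fold change of -3.65 (standard error 0.18). Taken within replicate numbers, the log2 difference was -3.67 for number 1 and -3.62 for number 2. The 95% Poisson intervals, which cover counting error only, ran from 16.6 to 20.8 CPM over the EV libraries and from 1.02 to 2.15 CPM over the FCN3 libraries.

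CPS1 remained detectable in both FCN3 libraries, above the floor of 3 counts, which corresponds to between 0.0823 and 0.179 CPM. Of 11969 tested genes whose average log2 CPM reached 1, 3 had a more negative log2 fold change, and CPS1 lay between CRTAC1 (-3.93) and NPTX1 (-3.07) in that order.

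**Figure D1:**
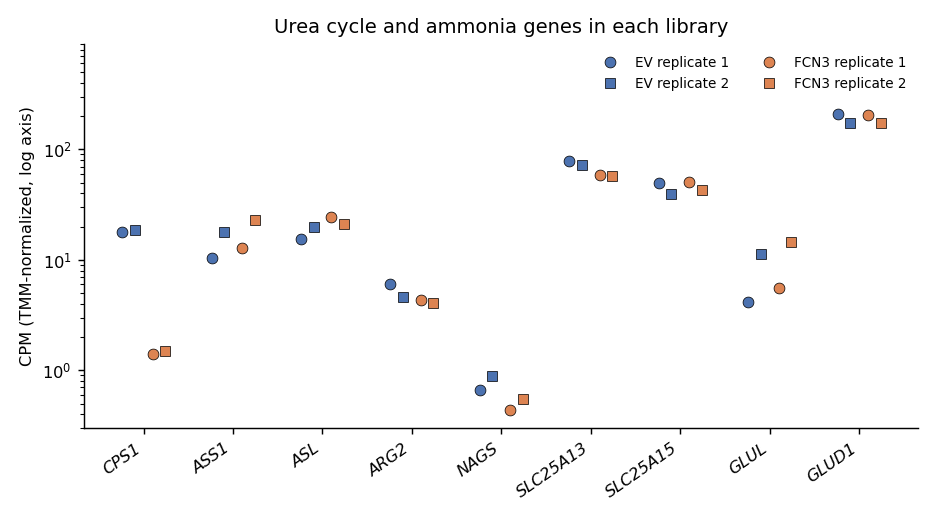
Level of each of the 9 genes in the 4 libraries, in TMM-normalized CPM on a log axis, with circles for replicate 1 and squares for replicate 2. CPS1 is near 18 CPM in both EV libraries and near 1.5 CPM in both FCN3 libraries, while the other genes show no difference of that size between groups.

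The other 8 members showed no change of that size, with log2 fold changes between -0.60 and 0.44 and a median of 0.02, the same as the median of all 14099 tested genes (0.02). edgeR's quasi-likelihood test with Benjamini-Hochberg adjustment called 0 of the 8 at an FDR of 0.01, where it called 0.965% of all tested genes, 0.738% higher and 0.227% lower with the FCN3 virus. At an unadjusted p under 0.05, 1 of the 8 passed in edgeR, SLC25A13, against 25.1% of all tested genes. DESeq2 gave an adjusted p to 7 of the 8, all but NAGS, and called 0 of them, against 7.86% of all genes with an adjusted p (4.43% higher and 3.43% lower). limma-voom called 0 of the 8, where it called 105 of the 14099 tested genes higher and 33 lower. The groups did not overlap in 4 of the 8, 1 higher and 3 lower with the FCN3 virus, whereas they did not overlap in 54.5% of all tested genes, 28% higher and 26.5% lower. A second fit held the replicate number as a block, which compares libraries of the same number. The labels say only that such libraries share a number, but same-numbered libraries deviated together (r = 0.806 across 8310 genes, which are not independent). For GLUL the standard error was 0.63 without the block and 0.13 with it. The 0 calls without the block thus do not show that the 8 were unchanged. The fit with the block called 4 of the 8, ASS1, ASL and GLUL higher and SLC25A13 lower. Of all tested genes it called 36.2%, 19.1% higher and 17.1% lower.

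**Figure D2:**
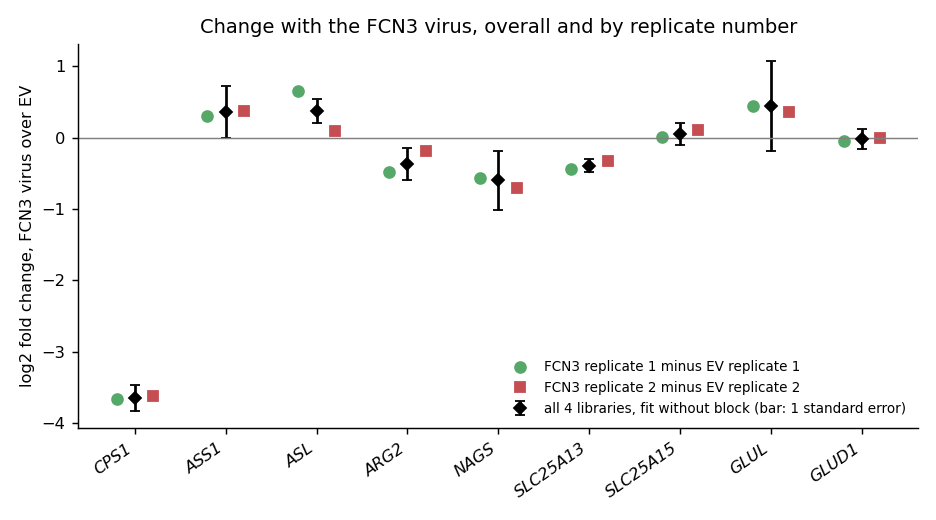
log2 fold change of each member, FCN3 virus over EV: diamonds with bars of 1 standard error from edgeR without the block, circles and squares for the difference between libraries of replicate number 1 and 2. CPS1 is near -3.65 by all measures, and the diamonds of the other 8 lie between -0.60 and 0.44.

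NAGS, which makes the obligate activator of CPS1, lies on chromosome 17 of GRCh37 from 42081990 to 42086436. It had 24 and 15 expected counts in EV and 15 and 11 with the FCN3 virus, or 0.659 and 0.896 against 0.442 and 0.553 CPM. Both FCN3 libraries were below both EV libraries, but the 95% Poisson intervals overlapped. On the log2 scale the fold change was -0.60 (standard error 0.42). The edgeR adjusted p was 0.44, or 0.21 under the replicate block, so that a change of NAGS was not detectable at this depth.

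ASS1 and ASL catalyse the cytosolic steps that make arginine, and neither was called without the block. ASS1, argininosuccinate synthase, lies on chromosome 9 from 133320348 to 133376661. Its level was 10.5 and 17.9 CPM in EV replicates 1 and 2 and 12.9 and 23.1 CPM in FCN3 replicates 1 and 2. The groups overlapped, and replicate 2 was the higher library in each. edgeR gave a log2 fold change of 0.36 (standard error 0.37, edgeR adjusted p = 0.6). With the replicate block it was 0.34 (standard error 0.10, adjusted p = 0.0037 in edgeR), and the adjusted p ranged from 0.0037 to 0.99 over 15 settings. The sign of the fold change turned without EV replicate 1 (-0.01) and without FCN3 replicate 2 (-0.11). Within replicate numbers ASS1 was higher with the FCN3 virus by 0.30 and 0.37 on the log2 scale.

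ASL, argininosuccinate lyase, lies on chromosome 7 from 65540787 to 65559684, and overlaps in part another gene model on the same strand that is not analysed here. It was at 15.4 and 20 CPM in EV and at 24.3 and 21.3 CPM with the FCN3 virus. Both FCN3 libraries were above both EV libraries, FCN3 replicate 2 by little. By edgeR, ASL had a log2 fold change of 0.38 (standard error 0.17, edgeR adjusted p = 0.24), and 0.40 with the block (standard error 0.10, adjusted p = 0.00057 in edgeR, range 0.00057 to 0.62 over 15 settings). Within replicate number 1 the difference was 0.66, and within number 2 it was 0.09.

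Of the arginases, ARG2, the mitochondrial enzyme, was above the floor. Its gene is on the plus strand of chromosome 14 from 68086637 to 68118425 and overlaps VTI1B on the other strand, with which reads may be shared. ARG2 was at 6.04 and 4.6 CPM in EV and at 4.33 and 4.07 CPM with the FCN3 virus. Both FCN3 libraries were below both EV libraries, and EV replicate 2 was close to them. This gave a log2 fold change of -0.37 (standard error 0.22, edgeR adjusted p = 0.36, and 0.056 with the block). ARG1, the liver arginase, had 0, 1, 0 and 0 expected counts in EV replicates 1 and 2 and FCN3 replicates 1 and 2.

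OTC, the mitochondrial enzyme that uses carbamoyl phosphate in the urea cycle, had 0 expected counts in all 4 libraries, which allows levels of up to between 0.0823 and 0.179 CPM. SLC25A2, an ornithine carrier, had 1 count in EV replicate 1 and 0 elsewhere, and CA5A, a mitochondrial carbonic anhydrase of liver, had 0 in all. In EV cells CPS1 transcripts were thus measured where those of OTC were not detectable at this depth.

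Of the mitochondrial carriers of the cycle, SLC25A13 was lower with the FCN3 virus. It encodes citrin, which exports the aspartate that ASS1 uses, and spans 95749532 to 95951459 of chromosome 7 on the minus strand. SLC25A13 was at 79.3 and 72.9 CPM in EV and at 58.6 and 57.8 CPM with the FCN3 virus. The groups were separate, and the 2 FCN3 libraries were nearly equal. Its log2 fold change was -0.39 (standard error 0.09, edgeR adjusted p = 0.066, not called). With the replicate block it was -0.39 (standard error 0.06, adjusted p = 5.6e-07 in edgeR, range 5.6e-07 to 0.3 over 15 settings). SLC25A12, the related aspartate carrier aralar, named after its values were seen, had a log2 fold change of -0.20 (standard error 0.10, edgeR adjusted p = 0.31, and 0.022 with the block).

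SLC25A15, the ornithine and citrulline carrier on chromosome 13 from 41363548 to 41386596, was at 50.1 and 39.4 CPM in EV and at 50.3 and 42.6 CPM with the FCN3 virus. The groups overlapped. Between them the log2 fold change was 0.05 (standard error 0.15, edgeR adjusted p = 0.88, and 0.54 with the block).

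The 2 ammonia and glutamate enzymes differed from CPS1 in their pattern. GLUL, glutamine synthetase, spans 182347233 to 182361341 of chromosome 1 on the minus strand. Its level was 4.12 and 11.3 CPM in EV replicates 1 and 2 and 5.57 and 14.6 CPM in FCN3 replicates 1 and 2. The groups overlapped, and the spread between replicate numbers was larger than the difference between groups. For GLUL the log2 fold change was 0.44 (standard error 0.63, edgeR adjusted p = 0.72), and 0.40 with the block (standard error 0.13, adjusted p = 0.009 in edgeR, range 0.009 to 0.9 over 15 settings). Within replicate numbers the difference was 0.44 and 0.36.

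GLUD1, glutamate dehydrogenase, spans 88809959 to 88854600 of chromosome 10 on the minus strand, where its first bases overlap SHLD2 on the other strand, and had the highest level of the 9. It was at 211 and 173 CPM in EV and at 205 and 173 CPM with the FCN3 virus. The levels of the groups coincided, with a log2 fold change of -0.02 (standard error 0.14, edgeR adjusted p = 0.94, and 0.77 with the block). GLUD2, an intronless copy whose reads RSEM separates only in part, held between 1.06% and 1.69% of the counts of GLUD1 and GLUD2 together. The pseudogene GLUD1P3 held at most 0.619% and GLUD1P7 at most 0.242% of its sum with GLUD1, and GLUD1 was not called after these copies were added to it.

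Levels of different genes were compared in TPM, which is per transcript length. In EV cells the order was GLUD1 (106 ± 15.6 TPM), SLC25A13 (46.1 ± 3.08), SLC25A15 (21.2 ± 3.69), ASL (18.1 ± 3.21), ASS1 (16 ± 5.80), CPS1 (6.11 ± 0.099), ARG2 (5.36 ± 1.06), GLUL (3.34 ± 2.18) and NAGS (0.745 ± 0.163, SD, n = 2 for each). Replicate values of SLC25A15 and ASL overlapped, as did those of ASL and ASS1, of CPS1 and ARG2, and of ARG2 and GLUL. With the FCN3 virus CPS1 moved from the sixth to the eighth place, at 0.465 ± 0.0495 TPM (SD, n = 2), and its replicate values overlapped those of NAGS at 0.445 ± 0.0778 TPM (SD, n = 2). The other neighbours whose values overlapped with the FCN3 virus were ASL and SLC25A15, SLC25A15 and ASS1, and GLUL and ARG2.

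Members also varied between replicate numbers. GLUL was higher in replicate 2 than in replicate 1 by 1.46 on the log2 scale in EV and by 1.39 with the FCN3 virus, and ASS1 by 0.77 and 0.83. GLUD1 and SLC25A15 were lower in replicate 2 in both groups, by 0.24 to 0.34. CPS1 differed by 0.04 in EV and 0.09 with the FCN3 virus. ASL was higher in replicate 2 in EV (0.38) and lower in replicate 2 with the FCN3 virus (-0.19). HNF4A, a transcription factor of liver and gut named after its values were seen, was likewise at 9.88 and 28.2 CPM in EV replicates 1 and 2 and at 15.3 and 30.2 CPM in FCN3 replicates 1 and 2. What sets replicate 1 and replicate 2 apart is not given in the sources used here, apart from depth.

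**Figure D3:**
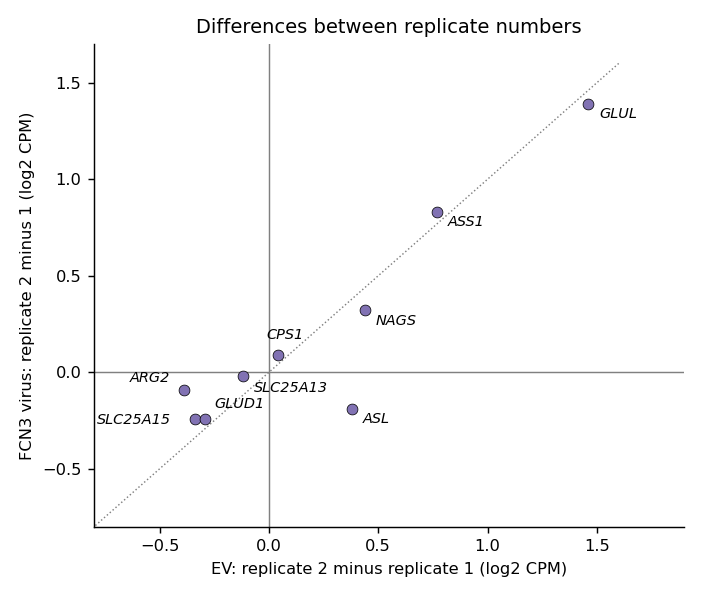
Each point is a member, with the log2 difference between replicate 2 and replicate 1 in EV on the x axis and with the FCN3 virus on the y axis, and a dotted line of equality. GLUL (1.46 and 1.39) and ASS1 (0.77 and 0.83) lie farthest from 0, CPS1 close to 0, and ASL away from the line.

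The genes whose pattern over the 4 libraries was most like that of CPS1 were ranked by the Euclidean distance of their centred log2 CPM among the other 11968 genes of that abundance, an average log2 CPM of 1 or more. Nearest was CRTAC1, an extracellular matrix protein of cartilage (distance 0.361), followed by the noncoding RNA LINC00473 (0.704), C11orf86 (0.732), the tight junction gene CLDN2 (0.933) and the complement gene C3 (0.958). CRTAC1 was at 16.3 CPM in both EV libraries and at 0.914 and 1.31 CPM with the FCN3 virus. C3 was at 73.5 and 78.3 CPM against 13.1 and 6.38 CPM. These genes were selected for this pattern, so no test is given.

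LANCL1 lies next to CPS1 on the opposite strand of chromosome 2, from 211291855 to 211342376, so that the genes run apart with the starts of the gene models 30 bases from each other. LANCL1 was at 86.9 and 79.7 CPM in EV and at 65.4 and 69.3 CPM in FCN3 libraries. Both values were below both EV values, with a log2 fold change of -0.31 (standard error 0.09, edgeR adjusted p = 0.12, and 3.3e-05 with the block). ERBB4, 696611 bases beyond the other end of CPS1, and CPS1-IT1, a noncoding gene within CPS1, had 0 counts in all libraries.

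**Figure D4:**
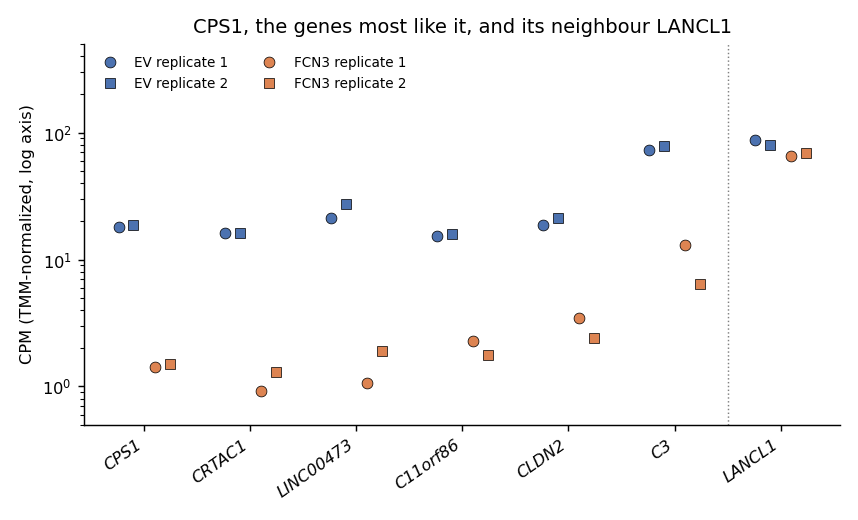
CPM in each library, on a log axis, of CPS1, of the 5 genes with the nearest pattern and, right of the dotted line, of the adjacent gene LANCL1. The first 6 genes are several-fold lower in both FCN3 libraries, and LANCL1 goes from 86.9 and 79.7 to 65.4 and 69.3 CPM.

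Lists of related enzymes, carriers and transcription factors held 85 genes in the tables, of which 73 passed the filter on low counts. edgeR called 6 of the 73, all higher with the FCN3 virus, where 0.738% of all tested genes were called higher. They were ASNS, GFPT1, BCAT1, GOT1, PSAT1 and PYCR1. The lists were drawn up with earlier results of these data known, so these counts are a description. In the other direction 0 were called by edgeR, DESeq2 and limma-voom. Lower calls over all genes were 0.227% in edgeR, 3.43% in DESeq2 and 33 of 14099 in limma-voom. At an unadjusted p under 0.05 in edgeR, 14 of the 73 passed as higher and 8 as lower, where 13.6% and 11.6% of all tested genes did. DESeq2 called 10 higher of the 70 to which it gave an adjusted p, against 4.43% of all such genes. With the replicate block 18 were called higher and 18 lower, where the same fit called 19.1% and 17.1% of all tested genes. The median log2 fold change of the 73 was -0.04, beside 0.02 for all tested genes.

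Among 10 glutamine amidotransferases, enzymes that take their nitrogen from glutamine, 2 were called higher by edgeR without the block. That fit called 0.738% of all tested genes higher. With the block 4 were called higher and 2 lower, beside 19.1% and 17.1% of all tested genes. ASNS, asparagine synthetase, was at 60.4 CPM in both EV libraries and at 251 and 272 CPM in FCN3 libraries, a log2 fold change of 2.11 (standard error 0.09, edgeR adjusted p = 0.0012). GFPT1, the first enzyme of hexosamine synthesis, went from 109 and 116 to 311 and 300 CPM (log2 fold change 1.45, standard error 0.08, edgeR adjusted p = 0.0026). The median of the list was -0.02. CAD, the cytosolic enzyme that makes carbamoyl phosphate from glutamine for pyrimidines, was at 259 and 281 CPM in EV and at 242 and 251 CPM with the FCN3 virus. The groups were separate by a small margin, with a log2 fold change of -0.13 (standard error 0.08, edgeR adjusted p = 0.4, and 0.031 with the block). In the 7 genes of pyrimidine synthesis, which include CAD, 0 were called without the block, beside 0.965% of all tested genes. With the block 1 of the 7 was called higher and 2 lower, beside 19.1% and 17.1% of all tested genes. Their median was -0.13, the largest change being that of TYMS, thymidylate synthase (log2 fold change -0.35, standard error 0.10, edgeR adjusted p = 0.1, and 1.9e-07 with the block).

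Of 7 tested aminotransferases, which move amino groups between amino acids, 3 were called higher by edgeR without the block. That fit called 0.738% of all tested genes higher. With the block 4 were called higher and 2 lower, beside 19.1% and 17.1% of all tested genes. The median of the list was 1.06. BCAT1, the cytosolic branched-chain aminotransferase, was at 32.5 and 31.8 CPM in EV and at 107 and 125 CPM in FCN3 libraries (log2 fold change 1.85, standard error 0.11, edgeR adjusted p = 0.003). PSAT1, of serine synthesis, went from 257 and 238 to 600 and 589 CPM (log2 fold change 1.26, standard error 0.08, edgeR adjusted p = 0.0031). GOT1, the cytosolic enzyme that makes or uses aspartate, went from 61.7 and 53.8 to 140 and 128 CPM (log2 fold change 1.21, standard error 0.11, edgeR adjusted p = 0.0074). In each of these 3 called genes both FCN3 libraries were above both EV libraries by a wide margin. GPT2, named after its values were seen, went from 27.3 and 25.7 to 57.7 and 52.6 CPM (log2 fold change 1.06, standard error 0.10). It was not called, with an edgeR adjusted p that rounds to 0.01, and 2.3e-18 with the block.

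Among 16 genes of ornithine, proline and polyamine metabolism, PYCR1, which makes proline in mitochondria, was the only one called by edgeR without the block. Of all tested genes that fit called 0.738% higher and 0.227% lower. With the block 4 of the 16 were called higher and 3 lower, beside 19.1% and 17.1% of all tested genes. PYCR1 was at 121 CPM in both EV libraries and at 267 and 278 CPM in FCN3 libraries (log2 fold change 1.18, standard error 0.08, edgeR adjusted p = 0.0031), while the median of the list was 0.04. OAT, listed with the aminotransferases and named after its values were seen, links ornithine to proline and had a log2 fold change of -0.29 (standard error 0.13, edgeR adjusted p = 0.26, and 6.2e-05 with the block).

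In the remaining lists 0 genes were called by edgeR without the block, beside 0.965% of all tested genes. The gene with the largest absolute change within each of these 6 lists is given here, list by list. Among other urea cycle genes it was SIRT5, a mitochondrial deacylase known to act on CPS1 (log2 fold change 0.27, standard error 0.13). Of the glutaminases and GLUD2 it was GLUD2 (-0.45, standard error 0.25), and of the aspartate, malate and fumarate enzymes it was ADSSL1, the muscle-type adenylosuccinate synthase (0.40, standard error 0.22). Other arginine users were led by the nitric oxide synthase NOS1 (-1.14, standard error 0.30), membrane transporters by the arginine transporter SLC7A1 (0.80, standard error 0.11) and liver-type transcription factors by ONECUT1 (-1.46, standard error 0.60). Their adjusted p in edgeR was 0.27, 0.33, 0.33, 0.085, 0.018 and 0.21, in the same order, and 0.022, 0.057, 0.09, 0.00018, 1.3e-18 and 0.019 with the block. ONECUT1 rested on 16 and 14 against 7 and 4 expected counts. The 6 tested membrane transporters had a median log2 fold change of 0.62. With the block 4 of them were called higher and 1 lower, beside 19.1% and 17.1% of all tested genes. The 12 tested liver-type transcription factors had a median log2 fold change of -0.08, and FOXA2, which is abundant in A549, was at 39.6, 41.2, 39.8 and 40.8 CPM over EV replicates 1 and 2 and FCN3 replicates 1 and 2. FOXA2 was named after its values were seen.

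**Figure D5:**
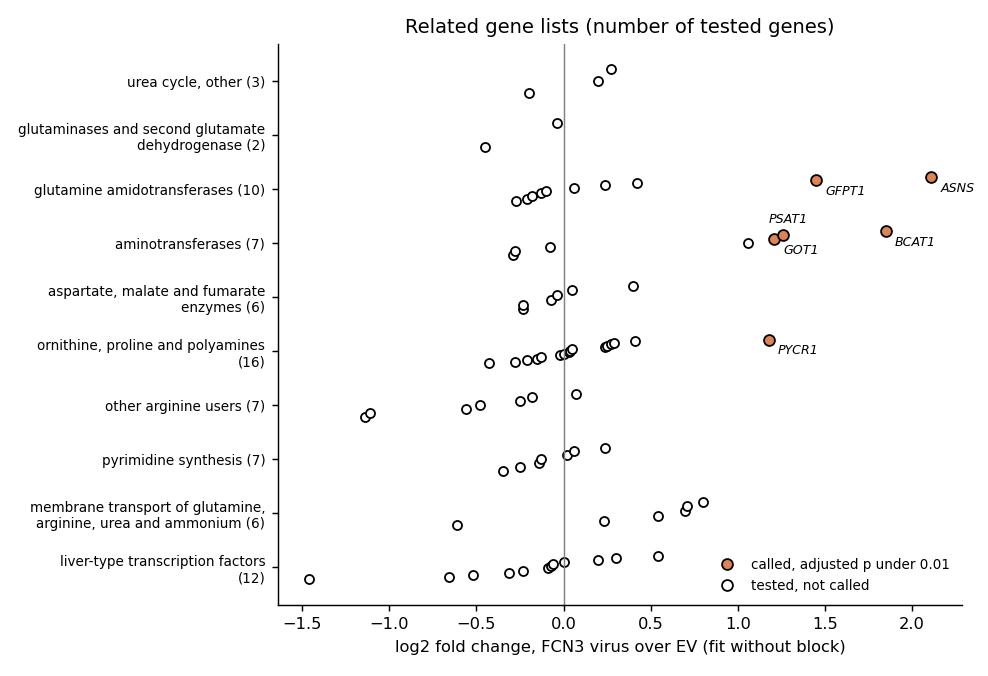
log2 fold change, FCN3 virus over EV, of every tested gene in 10 related lists, from edgeR without the block, with called genes filled and named. The 6 called genes lie between 1.18 and 2.11, all on the side of higher levels with the FCN3 virus, and CAD, CTPS1 and CTPS2 appear in 2 lists.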

How the data were processed

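Stranded mRNA libraries were sequenced from 2 EV and 2 FCN3-virus-transduced A549 cultures. Reads were trimmed and filtered, aligned to hg19 with STAR 2.6.1d (per the labels) and quantified with RSEM by the authors. The authors deposited unnormalized expected counts per gene, some of them fractional. TPM and FPKM values from the authors are scaled by RSEM for length and depth, and FPKM was not used. The strand setting of the counting is not given in the sources used here.

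After rounding, the expected counts were tested with R 4.3.3 and edgeR 4.0.16 (filterByExpr, TMM, quasi-likelihood test, Benjamini-Hochberg over 14099 of 25192 genes, FDR of 0.01). A standard error is the absolute log2 fold change over the square root of F. Alternatives used limma 3.58.1, DESeq2 1.42.0 and a replicate block, and on TPM 1 or 0.1 was added before the logarithm. Scripts were tested on simulated counts, with 200 genes changed by a log2 of 1. Without a replicate-number effect, edgeR recovered 200 with and without the block. With such an effect, taken from the EV replicates and given alike to both groups, it recovered 0 without the block and 199 with it. The effect was shared by construction, so this result cannot show which fit suits the real libraries. At most 2 unchanged genes were called. Members and lists were chosen with earlier results of these data known. Named were all members, called genes and the largest change of each list, the 5 genes most like CPS1, its neighbours, copies of members, CAD, OTC and FCN3. Of 12 listed copies 3 were analysed here. Locations are from GENCODE on GRCh37; upstream windows are from RefSeq on GRCh38.p14, found for 9 of 9 members. Poisson intervals and the floor of 3 counts cover counting error only.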

Additional observations from a re-analysis of the deposited data

How the results depend on the processing

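With 2 libraries in each group, 15 settings were compared. The replicate block called 2690 genes higher and 2413 lower in place of 104 and 32, 3 members other than CPS1 higher and 1 lower in place of 0 and 0, and 18 genes of the related lists in each direction in place of 6 and 0. The numbers are not stated to mark a shared batch, but same-numbered libraries deviated together (difference between EV replicates against that between FCN3 replicates, r = 0.806 across 8310 genes, which are not independent). DESeq2 called 590 genes higher and 457 lower, and 10 higher in the related lists. An FDR of 0.05 gave 624 and 390. The cause of these differences was not tested.

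The log2 fold change of CPS1 was -2.28 on log2(TPM + 1) and -3.46 on log2(TPM + 0.1), where the added constant shrinks low levels, and between -3.69 and -3.60 with a library left out. Leaving out a library gave between 78 and 181 genes higher (181 without EV replicate 2) and between 14 and 86 lower (86 without EV replicate 2, 53 without EV replicate 1, 14 without FCN3 replicate 1), with 0 members other than CPS1 called each time. The sign of 4 members turned: with a library left out, the log2 fold change ranged from -0.11 to 0.75 for ASS1, from -0.40 to 1.22 for GLUL, from -0.17 to 0.14 for GLUD1 and from -0.11 to 0.25 for SLC25A15, which was also -0.04 on both TPM scales. ASS1 and GLUL turned without EV replicate 1 (-0.01 and -0.24) and without FCN3 replicate 2 (-0.11 and -0.40), as did GLUD1 (0.14 and 0.09), and SLC25A15 without EV replicate 2 (-0.11) and without FCN3 replicate 1 (-0.08). In the other 106 comparisons of single members the direction and the side of the threshold stayed as reported (for NAGS in DESeq2, which gave it no adjusted p, the direction only), and the block alone moved 4 past it. Levels near 1 CPM, those of NAGS and of CPS1 with the FCN3 virus, rest on few counts.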
